A study of Mus musculus with 18 samples.

Results

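Isg15 and 5 enzymes that attach its product to proteins or remove it were followed by gene symbol through every mRNA and footprint library of a series on TC1 cells. The 6 genes are Isg15, Uba7, Ube2l6, Herc6, Trim25 and Usp18. All 6 are among the 28738 genes of the sgMyc mRNA table and the 17379 genes of the sgNAT10 mRNA table. Of the 10974 genes in the ribosome profiling table, 4 are members, namely Isg15, Ube2l6, Herc6 and Trim25.

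ISG15 is a small protein of the ubiquitin family whose gene is switched on by type I interferon. It is joined to lysines of other proteins by a relay of enzymes like that of ubiquitin, in which UBA7 (the activating enzyme, E1) passes it to UBE2L6 (the conjugating enzyme, E2) and a ligase (E3) hands it to the target. HERC6 is the main ISG15 ligase in mice, and TRIM25 is a ubiquitin ligase of the RIG-I pathway that is also reported to attach ISG15. USP18 removes ISG15 from its targets and, apart from that, binds the interferon receptor subunit IFNAR2 and damps its signal.

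TC1 is a mouse tumour line, which the labels call fibrosarcoma. In the first set, mRNA was sequenced from 3 libraries of cells with a guide against Myc (sgMyc) and 3 libraries of unedited wild-type (WT) cells. In the second set, mRNA and ribosome-protected fragments (Ribo-seq) were each sequenced from 2 libraries of cells with a guide against Nat10 (sgNAT10), the RNA cytidine acetyltransferase gene, and 2 WT libraries. The acRIP-seq libraries of WT and sgNAT10 cells were not used here. All these WT cells are unedited, none of these libraries is labelled as carrying a control guide, and the labels do not say whether edited cells were a pool or 1 clone, or how long after editing they were taken. They also do not say that replicates came from separate cultures, so p-values measure the spread between these libraries, which may be technical. Levels are in FPKM, fragments normalised to the length of the gene and to the mapped fragments of the library. The tables were normalised separately, so levels from different tables are set side by side without a test. A gene was called when its Benjamini-Hochberg adjusted p, over all genes tested, was under 0.05.

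The sgMyc set had 57363229 to 65768024 counts per sgMyc library and 51875052 to 55900895 per WT library. Whole reads recovered from the FPKM values (see the processing account) came to 13230164 and 13987804 in the sgNAT10 mRNA libraries and 14375086 and 17188662 in their WT libraries. In Ribo-seq they came to 1542261 and 3192728 in sgNAT10 and 2799640 and 2849618 in WT. Myc had 21.1, 20.9 and 34.1 FPKM in sgMyc replicates 1 to 3, against 64.8, 61.6 and 70.8 FPKM in WT. Nat10 had 3.59 and 3.95 FPKM in sgNAT10 mRNA, against 5.36 and 5.30 FPKM in WT. Both targeted genes were therefore lower in every edited library, and in neither was the mRNA lost. SgMyc replicate 3 stood apart: across 11907 genes, its log2(FPKM + 1) values correlated with those of the other 2 sgMyc libraries at r = 0.930 each, and with those of WT libraries at r = 0.959 to 0.963. Replicates 1 and 2 correlated with each other at r = 0.995. Its Myc level also lay between those of the other sgMyc libraries and WT. Results of the sgMyc set are therefore given with and without it.

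The 6 genes lie on mouse chromosomes 2 (Ube2l6, 84798828 to 84810003), 4 (Isg15, 156199424 to 156200818), 6 (Herc6, 57580992 to 57665136, and Usp18, 121245906 to 121270917), 9 (Uba7, 107975567 to 107984056) and 11 (Trim25, 88999403 to 89020294) of build GRCm38.p6 in RefSeq. Sequences around the gene start, from 250 bases before it to 50 bases after it, were found in the RefSeq promoter table of that build for 5 of the 6 genes, Isg15, Uba7, Ube2l6, Herc6 and Trim25. The windows that hold a match to an interferon or MYC motif described below are shown, 5′ to 3′ on the strand of the gene, with the matches in capitals. They are Isg15 (chr4:156200769-156201068, minus strand), Uba7 (chr9:107975317-107975616, plus strand) and Trim25 (chr11:88999153-88999452, plus strand).
Isg15: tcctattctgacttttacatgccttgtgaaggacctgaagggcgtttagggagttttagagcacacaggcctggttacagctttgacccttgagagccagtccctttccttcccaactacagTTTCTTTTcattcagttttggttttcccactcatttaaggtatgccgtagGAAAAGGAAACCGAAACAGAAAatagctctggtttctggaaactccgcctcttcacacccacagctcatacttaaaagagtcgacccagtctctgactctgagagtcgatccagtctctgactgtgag
Uba7: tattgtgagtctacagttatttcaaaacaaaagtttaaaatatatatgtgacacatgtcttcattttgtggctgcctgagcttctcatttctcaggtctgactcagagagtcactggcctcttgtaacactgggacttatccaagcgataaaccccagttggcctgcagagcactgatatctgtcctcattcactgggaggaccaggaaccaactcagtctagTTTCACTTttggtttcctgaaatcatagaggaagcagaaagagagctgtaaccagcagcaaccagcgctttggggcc
Trim25: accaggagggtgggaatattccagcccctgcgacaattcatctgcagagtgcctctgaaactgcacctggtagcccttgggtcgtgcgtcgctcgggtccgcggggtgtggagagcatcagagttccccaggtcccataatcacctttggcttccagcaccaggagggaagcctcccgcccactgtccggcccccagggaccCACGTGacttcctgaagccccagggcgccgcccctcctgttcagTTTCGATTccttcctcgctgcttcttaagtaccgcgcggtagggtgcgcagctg

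The motifs described here were searched on both strands. They are the interferon-stimulated response element (ISRE, GAAA followed after any 2 bases by GAAA), the shorter element that interferon regulatory factors bind (IRF half-site, AANNGAAA, contained in every ISRE match) and the E-box of MYC (CACGTG). Isg15 has 3 ISRE matches that overlap in a row, starting 78, 72 and 66 bases before the gene start, and 1 further match to the shorter element. Uba7 has a single match to the shorter element that starts 27 bases before the gene start. Trim25 has an E-box that starts 48 bases before the gene start and a match to the shorter element that spans the gene start. None of these 3 motifs was found in the windows of Ube2l6 and Herc6. Of all 32851 promoter windows in the table, 3.44% hold the ISRE, 23.9% the shorter element and 7.15% the E-box. The windows of Trim25 and Ube2l6 hold 18 and 15 CpG dinucleotides, the site of DNA methylation in mammals. Of all windows, 70.3% hold fewer than Trim25 and 65.4% fewer than Ube2l6. Those of Isg15, Herc6 and Uba7 have 6, 4 and 2, and the median of all windows is 7. A match is a description of letters and shows no binding.

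**Figure D1:**
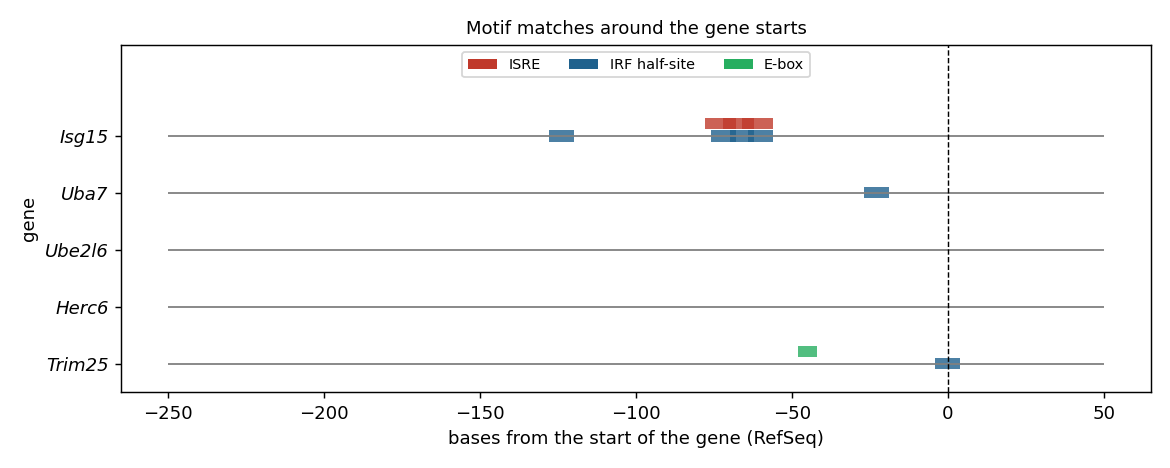
Matches to 3 motifs in the RefSeq promoter windows of 5 genes, by distance in bases from the gene start (dashed line). Each grey line is a window, each bar a match: Isg15 has 3 overlapping ISRE matches that start between 78 and 66 bases before the start, and Ube2l6 and Herc6 have none.

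The first comparison set the sgMyc libraries against their WT, and all 6 genes had their highest levels in the same sgMyc libraries, replicates 1 and 2. In the edgeR test of all 6 libraries, 5 of the 6 genes rose and Herc6 did not pass, beside 16.0% of all 16794 genes tested called in either direction, 7.11% higher and 8.86% lower. The median log2 fold change of the 6 genes was 4.02, against -0.03 for all genes tested. Without sgMyc replicate 3 all 6 rose, but 53.6% of all 17485 genes tested were then called, 26.6% higher and 26.9% lower. The libraries are from bulk cells, in which a higher level per cell and a larger share of cells with a high level cannot be told apart.

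Isg15, the modifier itself, had 574, 559 and 40.5 FPKM in sgMyc replicates 1 to 3, against 6.37, 4.46 and 6.74 FPKM in WT. Replicates 1 and 2 lay far above the rest, replicate 3 lay between them and WT, and the genotypes did not overlap. Isg15 rose by a log2 fold change of 6.04 (SE 1.03, edgeR adjusted p = 0.0130), and by 6.62 (SE 0.103, edgeR adjusted p = 2.0e-10) without replicate 3. Among all genes of a library it ranked 45th and 46th of 28738 by FPKM in sgMyc replicates 1 and 2 and 1154th in replicate 3, against between 6452nd and 8021st in WT. Its FPKM was above that of the ubiquitin gene Ubb in replicates 1 and 2 (Ubb, 400.2 and 394 FPKM) and below it in replicate 3 (290.4 FPKM) and in WT (299 to 309.8 FPKM).

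Uba7, the E1 that starts the relay, had 19.0, 20.1 and 1.14 FPKM in sgMyc replicates 1 to 3, against 0.513, 0.608 and 0.509 FPKM in WT. The genotypes did not overlap, with replicate 3 close to WT. It rose by 4.58 on the log2 scale (SE 1.00, edgeR adjusted p = 0.0289), and by 5.17 (SE 0.0717, adjusted p = 9.5e-11) without replicate 3.

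Ube2l6, the E2, had 76.7, 72.5 and 4.99 FPKM in sgMyc replicates 1 to 3, against 4.597, 4.09 and 5.13 FPKM in WT. Replicate 3 fell inside the range of WT, so the genotypes overlapped although the gene passed the test. Its log2 fold change was 3.46 (SE 0.911, edgeR adjusted p = 0.0494), and it rose by 4.04 (SE 0.0780, adjusted p = 8.5e-10) without replicate 3. With upper quartile scaling the call was lost (adjusted p = 0.0504), as it was with no filter on low counts (0.0791).

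Of the ligases, Herc6 had 10.5, 10.7 and 1.55 FPKM in sgMyc replicates 1 to 3, against 1.53, 1.61 and 1.83 FPKM in WT. Replicate 3 again lay within WT, and Herc6 did not pass over all libraries (log2 fold change 2.17, SE 0.653, edgeR adjusted p = 0.0721). Without replicate 3 it rose by 2.70 (SE 0.0707, adjusted p = 6.7e-09). DESeq2 called it over all 6 libraries (log2 fold change 2.23, adjusted p = 0.0213). Trim25 had 51.98, 50.8 and 14.7 FPKM in sgMyc, against 8.35, 8.36 and 8.89 FPKM in WT. It was the gene in which replicate 3 came nearest to the other 2, at 14.4% of their rise over the WT mean. Trim25 rose by 2.19 (SE 0.448, edgeR adjusted p = 0.0237), and by 2.62 (SE 0.0387, adjusted p = 1.5e-10) without replicate 3.

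Usp18, the protease that removes ISG15, had 112, 111 and 6.61 FPKM in sgMyc replicates 1 to 3, against 0.286, 0.242 and 0.299 FPKM in WT. In counts these were 20249, 19862 and 1356 in sgMyc, against 51, 42 and 54 in WT. Even replicate 3 was 22.1 times the highest WT library, the widest gap among the 6 genes. Usp18 rose by 8.02 (SE 1.19, edgeR adjusted p = 0.00867), and by 8.61 (SE 0.0544, adjusted p = 3.9e-12) without replicate 3. By log2 fold change it ranked 29th of the 16794 genes tested, Isg15 57th, Uba7 102nd, Ube2l6 165th, Trim25 332nd and Herc6 334th. Without replicate 3 the ranks were 48 for Usp18, 125 for Isg15, 177 for Uba7, 254 for Ube2l6, 448 for Herc6 and 465 for Trim25, of 17485 genes.

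**Figure D2:**
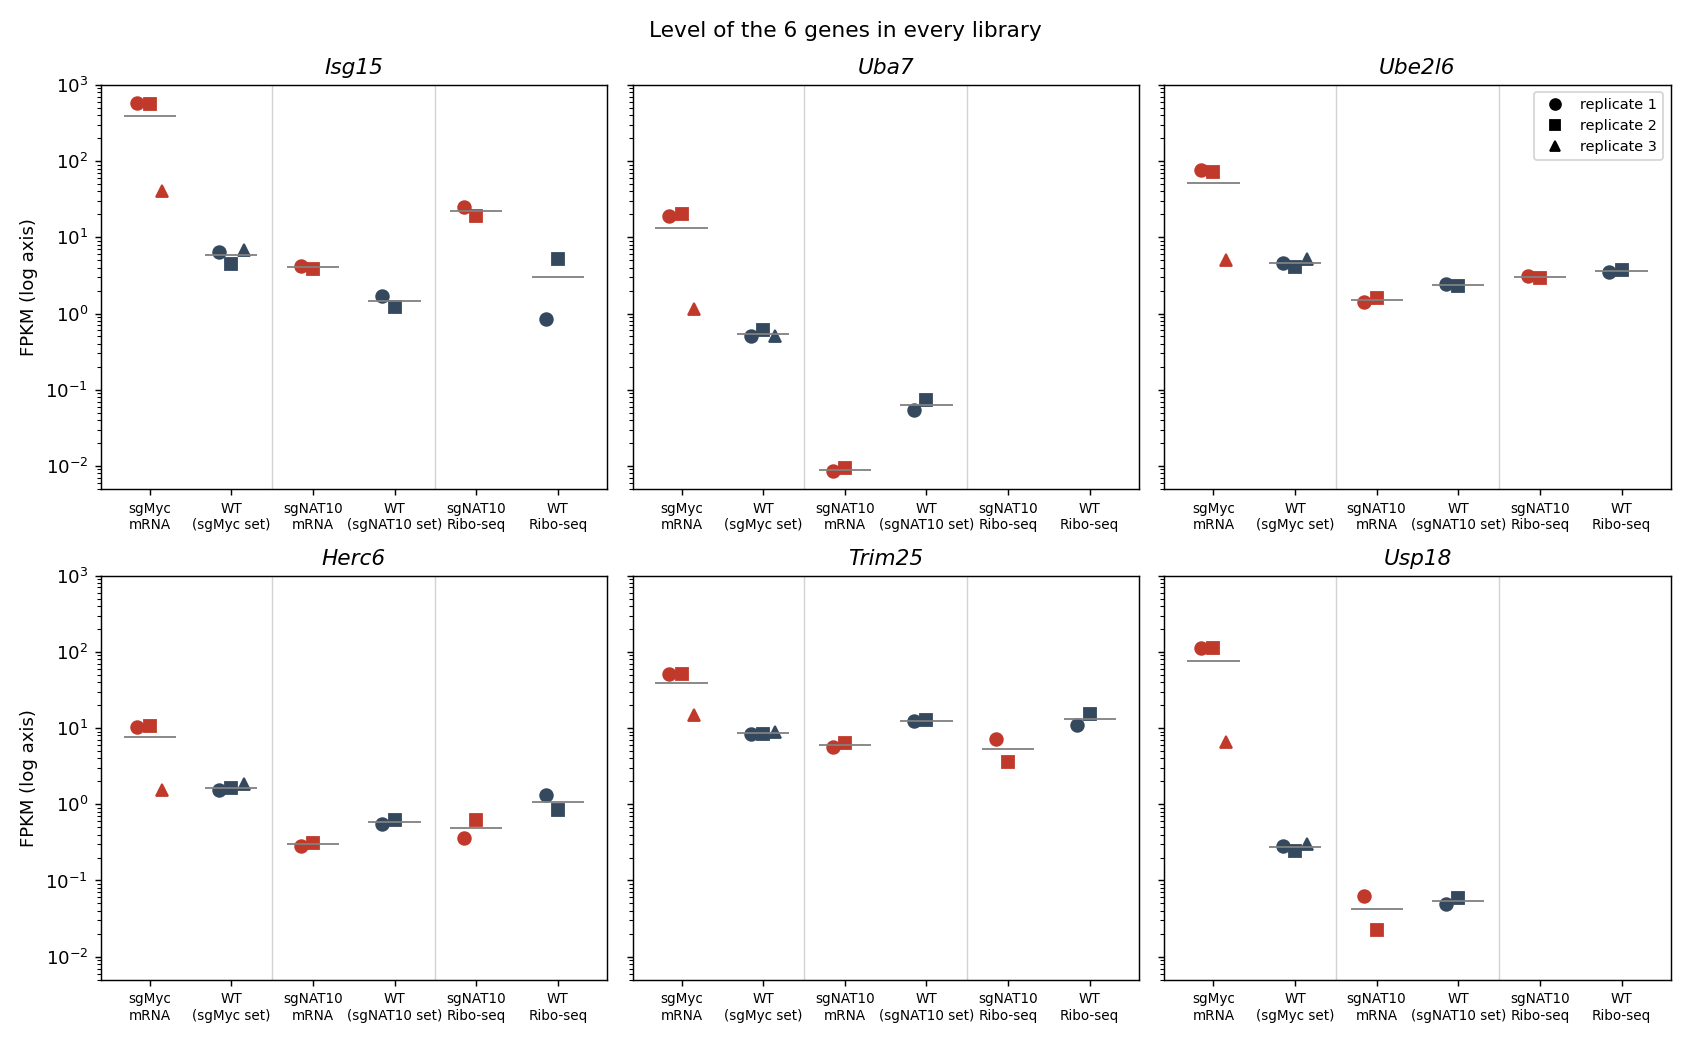
FPKM (log axis) of each gene in every library of the 3 tables, edited libraries in red and WT libraries in dark blue, with symbols for the replicate number and a grey line at the mean of each group. Replicates 1 and 2 of sgMyc are the highest mRNA libraries of every gene, replicate 3 of sgMyc lies below both and, for Ube2l6 and Herc6, within WT, and Uba7 and Usp18 have no value in Ribo-seq.

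The calls of this comparison rest on few libraries. Without sgMyc replicate 1 or replicate 2, edgeR called Isg15 and Usp18 of the 6 genes, with adjusted p = 0.0401 and 0.0281 without replicate 1, and 0.0432 and 0.0298 without replicate 2, beside 7.10% and 6.57% of all genes tested. Without WT replicate 1, 2 or 3, edgeR called 0 of the 6, beside 4.48%, 4.54% and 3.90% of all genes. All 6 had an unadjusted p under 0.05 each time, as had 3907 of 17454, 3956 of 17517 and 3740 of 17454 genes tested, and every log2 fold change of the 6 stayed positive. The lowest adjusted p, that of Usp18, was then 0.0583, 0.0600 and 0.0638. Over all libraries, DESeq2 called 6 of the 6, beside 3792 genes in all (13.2% of 28738, 7.27% higher). Limma on log2(FPKM + 1) called 3, Isg15, Trim25 and Usp18, beside 1835 genes in all (15.4% of those tested).

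SgMyc replicate 3 was intermediate, to a different degree in each, for Usp18, Isg15, Uba7 and Trim25. For Ube2l6 and Herc6 it lay within the range of WT. The mean of replicates 1 and 2 over the WT mean was 405-fold for Usp18, 96.8-fold for Isg15, 35.9-fold for Uba7, 16.2-fold for Ube2l6, 6.39-fold for Herc6 and 6.02-fold for Trim25. In replicate 3 the level over the WT mean was 24.0-fold for Usp18, 6.92-fold for Isg15, 2.09-fold for Uba7, 1.72-fold for Trim25, 1.08-fold for Ube2l6 and 0.936-fold for Herc6. Usp18, Isg15 and Uba7 thus held ranks 1 to 3 in both, while Trim25 was last in replicates 1 and 2 but above Ube2l6 and Herc6 in replicate 3. Nat10 was also different in that library, with 3.52, 3.31 and 6.27 FPKM in sgMyc replicates 1 to 3, against 5.01, 4.86 and 5.13 FPKM in WT. The part of Myc or Nat10 level in the intermediate values was not tested.

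**Figure D3:**
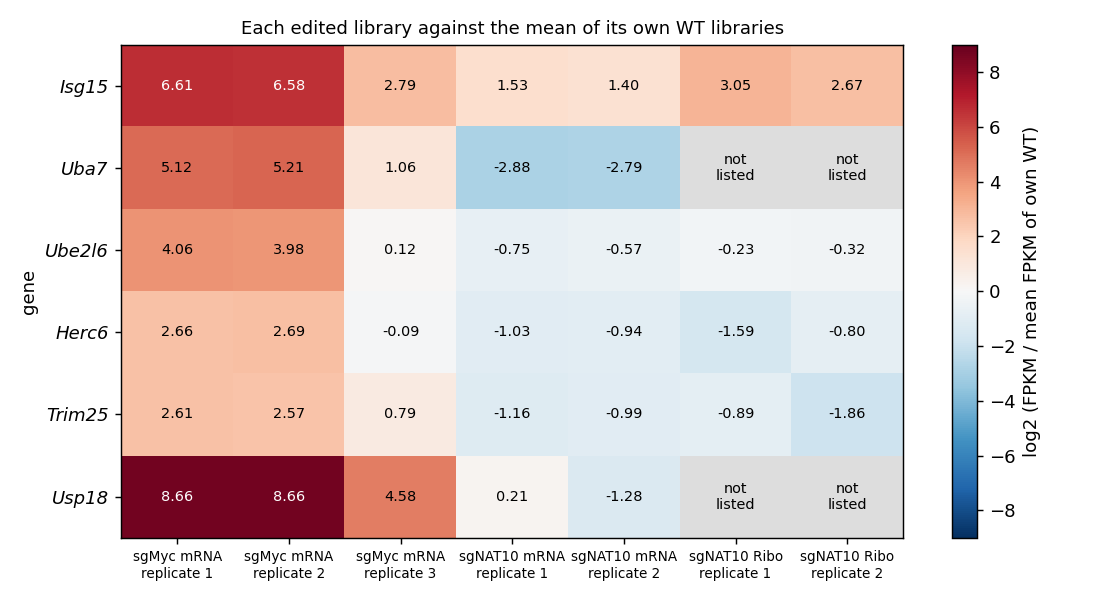
Log2 of each edited library's FPKM over the mean FPKM of its own WT libraries, for 6 genes (rows) and 7 edited libraries (columns), red above and blue below WT, with the value printed in each cell. The sgMyc values of replicates 1 and 2 lie between 2.57 and 8.66, those of replicate 3 between -0.09 and 4.58, and the Uba7 and Usp18 values in sgNAT10 mRNA rest on 1 to 3 reads per edited library.

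The proportions of the 6 mRNAs differed between genotypes as well as their levels, with FPKM comparing genes per length. In sgMyc replicates 1 and 2 the order was Isg15, Usp18, Ube2l6, Trim25, Uba7 and Herc6, from high to low. In sgMyc replicate 3 it was Isg15, Trim25, Usp18, Ube2l6, Herc6 and Uba7. In all 3 WT libraries it was Trim25, Isg15, Ube2l6, Herc6, Uba7 and Usp18. Usp18 was thus last in WT and second in sgMyc replicates 1 and 2. Isg15 mRNA exceeded Usp18 mRNA by 5.13, 5.02 and 6.14 times in sgMyc replicates 1 to 3, against 22.3, 18.4 and 22.5 times in WT. In this ratio replicate 3 lay with the other sgMyc libraries. Isg15 exceeded Ube2l6 by 7.49, 7.72 and 8.12 times in sgMyc, against 1.39, 1.09 and 1.31 times in WT, where the 2 levels were close.

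The E1 and E2 can be set beside their ubiquitin counterparts, UBA1 and UBE2L3. Ube2l6 was 2.66, 2.67 and 0.154 times Ube2l3 in sgMyc replicates 1 to 3, against 0.235, 0.224 and 0.287 times in WT. The ISG15 enzyme was therefore above the ubiquitin enzyme in sgMyc replicates 1 and 2 and below it in the other 4 libraries of the set. Ube2l3 itself had 28.9, 27.2 and 32.3 FPKM in sgMyc, against 19.6, 18.3 and 17.9 FPKM in WT, and rose (log2 fold change 0.67, SE 0.0986, edgeR adjusted p = 0.00844). Uba7 reached 29.2%, 30.8% and 1.46% of Uba1 in sgMyc, against 0.524%, 0.636% and 0.503% in WT. Uba1 fell (log2 fold change -0.50, SE 0.105, edgeR adjusted p = 0.0254), with 64.9, 65.4 and 77.7 FPKM in sgMyc against 98.0, 95.6 and 101 FPKM in WT. Of 24 ubiquitin-pathway relatives tested (ubiquitin, SUMO, NEDD8 and other modifiers, their activating enzymes, Ube2l3 and HERC genes), Ube2l3 rose and 3 fell, namely Uba1, the ubiquitin activating enzyme Uba6 (-0.45) and Fau, whose product holds a ubiquitin-like domain fused to a ribosomal protein (-0.44). Their median was -0.06. Without replicate 3, 7 of the 24 rose and 11 fell (median -0.16).

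**Figure D4:**
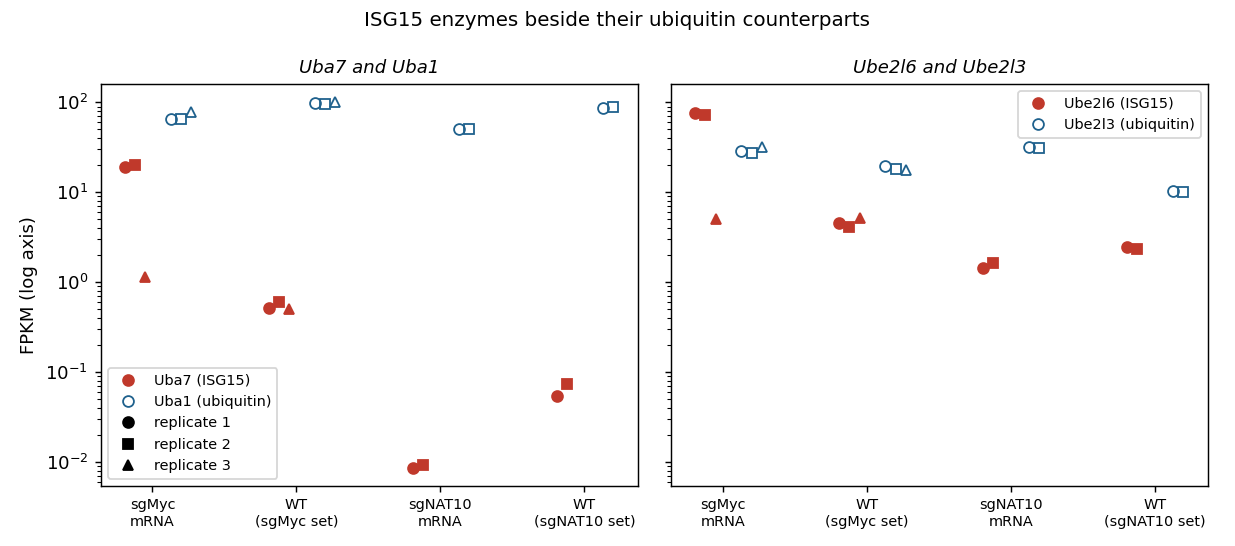
FPKM (log axis) of the ISG15 enzymes Uba7 (left) and Ube2l6 (right), filled red, beside their ubiquitin counterparts Uba1 and Ube2l3, open blue, in each mRNA library by group, with symbols for the replicate number. Ube2l6 lies above Ube2l3 in sgMyc replicates 1 and 2 and below it in every other mRNA library, and Uba7 lies below Uba1 in every mRNA library.

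Other genes around ISG15 were counted by list. Of 39 other interferon-stimulated genes tested, 35 rose and 0 fell (median log2 fold change 5.06), and without replicate 3 all 40 tested rose. Among them Oas2, which makes the activator of RNase L, rose by 9.70 (SE 1.67, edgeR adjusted p = 0.0138), and the interferon-induced gene Ifi44 by 9.45 (SE 1.52, adjusted p = 0.0113). The antiviral gene Rsad2 had 1912, 1727 and 78 counts in sgMyc replicates 1 to 3, against 0 counts in each WT library. It could pass the count filter only through the sgMyc libraries, so the filter fixed its direction, and it stands in both counts above. The 40 also include a gene that passed the filter only without replicate 3. In 15 of the 29 genes of this list with a promoter window, a window holds the ISRE. Of 13 genes of interferon signalling, 6 rose and 0 fell (median 0.66), among them the transcription factor genes Irf7 (7.17) and Irf9 (3.48). Irf7 had 113, 113 and 4.205 FPKM in sgMyc replicates 1 to 3, against 0.575, 0.399 and 0.565 FPKM in WT, so that replicate 3 again lay between the other sgMyc libraries and WT. The interferon gene Ifnb1 was below the count filter over all libraries, with 67, 48 and 4 counts in sgMyc, against 0, 0 and 2 in WT. Without replicate 3, 13 of 14 genes of the list rose, a count that includes Ifnb1, which then passed the filter through the sgMyc libraries alone and is given no fold.

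Of 18 genes whose proteins are reported targets of ISG15, 8 rose and 1 fell (median 0.34), and without replicate 3, 14 rose and 2 fell. Those with the largest rises were Mx1 (8.32), Ifit3 (7.86) and Ifit1 (6.31), which are themselves interferon-stimulated and stand in both lists, while the replication clamp gene Pcna fell (-0.40). Of 12 other ligases, proteases and partners reported for ISG15 or USP18, Stat2, a partner of USP18 at the receptor (3.35), rose and Usp13, a protease reported to act on ISG15 (-1.29), fell in the edgeR test of all libraries. Without replicate 3, 4 of the 12 rose and 3 fell, and the median was 0.04 in both fits.

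Markers of other cell types were read in the same libraries. T cell markers (3 of 6 listed) summed to at most 0.0831 FPKM in sgMyc and 0.0686 FPKM in WT. Endothelial (4 of 5) and epithelial (6 of 7) markers summed to at most 0.862 FPKM in any library of the set. Macrophage markers (5 of 7) summed to 29.3, 27.5 and 15.9 FPKM in sgMyc replicates 1 to 3, against 12.5, 12.0 and 11.3 FPKM in WT. That sum was mostly Cd14 and Cd68, and Cd14 rose (log2 fold change 1.20, SE 0.189, edgeR adjusted p = 0.0103), while Lyz2 was at 0 in every sgMyc library and Csf1r at or below 0.0362 FPKM on average in both genotypes. Fibroblast markers (9 of 9) summed to 1205, 1200.3 and 851 FPKM in sgMyc, against 1063, 1046 and 1039 FPKM in WT. That sum was mostly Vim, which fell (-0.35), while the median log2 fold change of the 9 markers was 1.86. Of the 9, 3 rose and 1 fell, and without replicate 3, 7 rose and 1 fell, so most of this list was higher in the same libraries as the ISG15 genes. Of 5 markers of plasmacytoid dendritic and B cells 2 were listed, of which Bst2 is itself interferon-stimulated and made up nearly the whole sum. Mitochondrially encoded genes summed to between 18696 and 21541 FPKM in sgMyc and between 30033 and 32686 FPKM in WT. Their part in the ISG15 results was not tested.

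In sgNAT10 cells the same mRNAs behaved differently from each other: Isg15 was higher, and the enzymes Ube2l6 and Trim25 were lower, at levels far below those of the sgMyc libraries. The limma test took genes averaging 1 FPKM or more, which left 3 of the 6, and all 3 were called, Isg15 higher and Ube2l6 and Trim25 lower. Since 63.3% of all 11735 genes tested were called (33.7% higher, 29.6% lower), a call is common in this comparison. Uba7, Herc6 and Usp18 were below the filter.

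Isg15 had 4.22 and 3.85 FPKM in sgNAT10, against 1.69 and 1.22 FPKM in WT, resting on 55 and 47 recovered reads in sgNAT10 and 28 and 17 in WT. Both sgNAT10 libraries were above both WT libraries. It rose by 1.04 on the log2(FPKM + 1) scale (SE 0.109, limma adjusted p = 0.000837), which understates low genes, and edgeR on the recovered reads gave 1.44 (SE 0.245, adjusted p = 1.4e-05). The authors' deposited table lists 1.46 for it (adjusted p = 0.000779). Cxcl10, a chemokine gene of the interferon response, rose as well (log2 fold change 1.26, limma adjusted p = 4.3e-05). Most genes tested from that list went the other way: of 14 other interferon-stimulated genes, Cxcl10 included, 3 rose and 10 fell (median -0.41). The rest of the 40 genes in the list were below the filter or not listed. Of those below the filter, some were higher and some lower in both sgNAT10 libraries than in both WT libraries.

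Uba7 had 0.00867 and 0.00926 FPKM in sgNAT10, against 0.0546 and 0.0732 FPKM in WT, which is 1 and 1 reads in sgNAT10, against 8 and 9 in WT. The ratio of sgNAT10 to WT was 0.142, with a 95% exact (Clopper-Pearson) interval of 0.0159 to 0.598 that covers counting error only. The authors' deposited table lists a log2 fold change of -2.83 for Uba7 with an adjusted p of 0.102. Ube2l6 had 1.42 and 1.61 FPKM in sgNAT10, against 2.47 and 2.32 FPKM in WT. It fell by 0.43 (log2 fold change -0.43, SE 0.0762, limma adjusted p = 0.00553), with no overlap between genotypes.

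Herc6 had 0.287 and 0.307 FPKM in sgNAT10, against 0.550 and 0.627 FPKM in WT, or 46 and 46 reads in sgNAT10 against 112 and 107 in WT. Too low for the FPKM filter, it was tested on recovered reads, where edgeR gave -0.99 (SE 0.171, adjusted p = 1.6e-05), and limma with no filter also called it lower (-0.29, adjusted p = 0.0114). Such calls were common, with 33.6% of 13859 genes called lower by edgeR and 24.7% of 17379 by limma with no filter. That limma fit, on a scale that understates such low genes, called neither Uba7 (-0.08, adjusted p = 0.148) nor Usp18 (-0.02, adjusted p = 0.772). The authors' deposited table lists -0.98 for Herc6 (adjusted p = 0.00121). Trim25 had 5.63 and 6.34 FPKM in sgNAT10, against 12.4 and 12.7 FPKM in WT. It fell (log2 fold change -0.96, SE 0.0613, limma adjusted p = 0.000163), and ranked 335th from the lowest of the 11735 genes by fold change. Usp18 had 3 and 1 reads in sgNAT10, against 3 and 3 in WT, and its ratio of 0.805 had an interval of 0.167 to 3.39, so that no difference was detectable at this depth.

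The 3 calls held when each of the 4 libraries was left out in turn, with adjusted p up to 0.0396. The order of the mRNAs changed little in this set. It was Trim25, Isg15, Ube2l6, Herc6, Usp18 and Uba7 in both sgNAT10 libraries, against Trim25, Ube2l6, Isg15, Herc6, Uba7 and Usp18 in both WT libraries. Isg15 was thus above Ube2l6 in sgNAT10, by 2.96 and 2.39 times, against 0.684 and 0.528 times in WT. Uba7 and Usp18, with 1 to 9 reads per library, cannot be ordered. Ube2l6 mRNA was 0.0450 and 0.0525 times Ube2l3 mRNA in sgNAT10, against 0.237 and 0.232 times in WT, and Ube2l3 rose (log2 fold change 1.52, SE 0.0392, limma adjusted p = 1.6e-05). Uba1 fell (-0.81, adjusted p = 3.3e-05), and of 24 ubiquitin relatives tested 8 rose and 8 fell.

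Of 14 other interferon-stimulated genes tested in sgNAT10 mRNA, 3 rose and 10 fell (median -0.41, against 0.01 for all genes). Those with the largest changes were Cxcl10, the virion tether gene Bst2 (-1.23) and the ligase gene Dtx3l (-1.09). Of 9 genes of interferon signalling, 4 rose and 1 fell (median 0.24), with the kinase gene Jak1 (1.21) and the inhibitor gene Socs3 (0.89) higher and Irf1 (-0.86) lower. Irf7 was below the filter, with 0.184 and 0.0985 FPKM in sgNAT10, against 0.169 and 0.173 FPKM in WT. Of 13 genes of ISG15 targets 4 rose and 6 fell (median 0.00), with Jak1 among those that rose. Of 11 other ISG15 enzymes and partners 5 rose and 2 fell (median 0.18), with Usp13 (-0.85), Usp2 (0.42) and the E2 gene Ube2e2 (0.37) changing most. Fibroblast markers (8 of 9) summed to 541 and 517 FPKM in sgNAT10, against 269.7 and 278 FPKM in WT (6 tested, 4 rose and 2 fell, median 1.19), and macrophage markers (4 of 7) to 13.7 and 12.2 FPKM in sgNAT10, against 5.50 and 6.004 FPKM in WT. Cd14 rose by 1.71 (SE 0.103, limma adjusted p = 0.000133), whereas Csf1r averaged 1.94 FPKM in sgNAT10 and 2.28 FPKM in WT (limma adjusted p = 0.125). Endothelial (2 of 5) and epithelial (2 of 7) markers summed to at most 0.262 FPKM, mitochondrially encoded genes summed to 22517 and 20729 FPKM in sgNAT10, against 25769 and 23801 FPKM in WT, and the part of any of these in the ISG15 values was not tested.

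**Figure D5:**
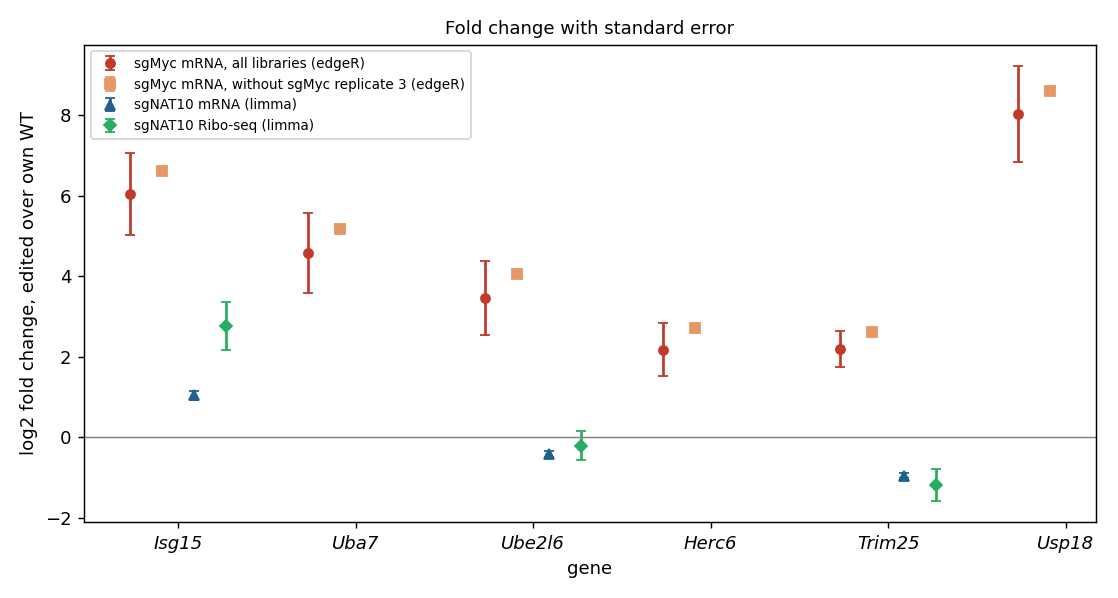
Log2 fold change of edited over own WT with its standard error, for each gene in the sgMyc set with and without replicate 3 (edgeR), in sgNAT10 mRNA and in sgNAT10 Ribo-seq (limma, log2(FPKM + 1) scale). All 6 sgMyc values are above 0, between 2.17 and 8.61, while in sgNAT10 Isg15 is above 0 and Ube2l6 and Trim25 are below it.

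Ribosome footprints of 4 members were listed, and the mean of each lay on the same side of WT as that of its mRNA. With limma 0 of the 3 members tested were called, beside 3.09% of all 9707 genes (1.81% higher, 1.28% lower), and 2 of them, Isg15 and Trim25, had an unadjusted p under 0.05, as had 2009 of the 9707 genes. EdgeR on recovered reads also called 0 of 4, beside 7.67% of all 9856 genes tested. Its adjusted p was 0.126 for Isg15 and 0.0809 for Trim25. Isg15 had 24.8 and 19.2 FPKM of footprints in sgNAT10, against 0.839 and 5.17 FPKM in WT, on 67 and 25 reads in sgNAT10 and 2 and 12 reads in WT. Both sgNAT10 libraries were higher than both WT libraries, but the WT libraries differed widely, and Isg15 did not pass (log2 fold change 2.76, SE 0.590, limma adjusted p = 0.0738). The authors' deposited table lists 2.88 with an adjusted p of 0.0223.

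Trim25 had 7.11 and 3.63 FPKM of footprints in sgNAT10, against 10.9 and 15.3 FPKM in WT, without overlap (log2 fold change -1.19, SE 0.389, limma adjusted p = 0.164). In the authors' deposited table it has -1.26 with an adjusted p of 0.00934. Ube2l6 had 3.09 and 2.90 FPKM in sgNAT10, against 3.496 and 3.75 FPKM in WT (log2 fold change -0.21, SE 0.368, limma adjusted p = 0.793). Herc6, with 0.362 and 0.624 FPKM in sgNAT10 against 1.33 and 0.841 FPKM in WT, was below the filter, and edgeR on its 10 to 39 reads per library gave -1.15 (adjusted p = 0.588). Ube2l6 footprints were 7.71 and 3.12 times those of Ube2l3 in sgNAT10, against 3.25 and 9.22 times in WT, the reverse of the order of their mRNAs, with Ube2l3 footprints averaging under 1 FPKM in both genotypes. By level, Isg15 was the highest of the 4 in both sgNAT10 footprint libraries, whereas Trim25 was the highest in both WT libraries. Of 16 other interferon-stimulated genes tested in footprints, Isg20, an RNA exonuclease gene, fell (log2 fold change -2.46, limma adjusted p = 0.0138) and none rose.

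Translational efficiency, footprints relative to mRNA, was compared in 1 model of both assays. The mean footprint level of Isg15 was 5.45 times its mean mRNA level in sgNAT10, against 2.06 times in WT. For Ube2l6 these ratios were 1.97 in sgNAT10 against 1.51 in WT, for Herc6 1.66 against 1.85 and for Trim25 0.897 against 1.05. None of the 3 tested members was called by limma, beside 0.261% of all 9200 genes (0.152% higher, 0.109% lower), and none had an unadjusted p under 0.05. For Isg15 the log2 difference was 1.72 (SE 0.740, limma adjusted p = 0.433). Its size depends on the 2 reads of WT replicate 1: without WT Ribo-seq replicate 2 the difference was 2.59 and was called (adjusted p = 0.0237), and without WT Ribo-seq replicate 1 it was 0.85 (adjusted p = 0.141). The model takes 1 spread per gene for both assays, although footprints spread more, so that these p-values can be too small.

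The differences of the 2 edited groups from their own WT were compared directly in 1 limma model of both mRNA sets, which share no library. Genes had to average 1 FPKM or more in each set, so Uba7, Herc6 and Usp18 were not tested. Myc mRNA was lower under both edits, with 40.0 and 40.9 FPKM in sgNAT10 against 115 and 117 FPKM in WT. Trim25 was called, its sgMyc effect exceeding its sgNAT10 effect by 2.84 on the log2(FPKM + 1) scale (SE 0.642, adjusted p = 0.0161), beside 21.0% of 10265 genes called (6.78% higher, 14.2% lower). It had 39.1 ± 21.2 FPKM in sgMyc and 8.53 ± 0.307 FPKM in WT (SD, n = 3 each), and 5.99 ± 0.507 FPKM in sgNAT10 and 12.6 ± 0.171 FPKM in WT (SD, n = 2 each). The call was lost on leaving out sgNAT10 replicate 1 (limma adjusted p = 0.0649), sgNAT10 replicate 2 (0.0572), or replicate 1 (0.0605) or 2 (0.0631) of their WT, with a difference of 2.76 to 2.91. Isg15 differed by 4.09 (SE 1.40, limma adjusted p = 0.0736) and Ube2l6 by 2.97 (SE 1.34, limma adjusted p = 0.161), neither called. Without sgMyc replicate 3 all 3 were called, at 5.35 for Isg15, 4.19 for Ube2l6 and 3.42 for Trim25, beside 59.6% of all genes tested (23.2% higher, 36.4% lower).

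The unedited cells of the 2 sets also differed in these mRNAs, side by side and without a test. Uba7 had 0.509 to 0.608 FPKM in WT of the sgMyc set and 0.0546 and 0.0732 FPKM in WT of the sgNAT10 set. Isg15 had 4.46 to 6.74 FPKM in the first and 1.22 and 1.69 FPKM in the second, and Usp18 0.242 to 0.299 FPKM in the first and 0.0491 and 0.0585 FPKM in the second. Trim25 was instead lower in the first set, with 8.35 to 8.89 FPKM in the first and 12.4 and 12.7 FPKM in the second.

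Across the 10 mRNA libraries, each centred on the mean of its own WT libraries, the genes most like Isg15 among 9557 were Ifitm3 (Pearson r = 0.996), Itga5 (0.996), Myd88 (0.993), Samd4 (0.992) and Tmem176a (0.992). Ifitm3, an interferon-induced membrane protein gene, had 1136, 1167 and 205 FPKM in sgMyc replicates 1 to 3, against 80.9, 80.4 and 71.9 FPKM in WT, and 130 and 123 FPKM in sgNAT10, against 88.3 and 90.4 FPKM in WT. Ube2l6 had r = 0.935 (rank 216) and Trim25 r = 0.883 (rank 464), both being lower in sgNAT10 where Isg15 was higher. The 10 points share the spread of the 3 sgMyc libraries, so these values are descriptions.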

How the data were processed

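Build mm10 and the tools featureCounts, Bowtie2, Trim Galore and FastQC stand in the submitters' processing notes, without versions or roles, and strand use is not given in the sources used here. Per the file headers, the authors deposited counts and FPKM per library for the sgMyc set, and FPKM with their own log2 fold changes and p-values for both sgNAT10 sets. Gene positions of the sgMyc table are of a build not named there and were not used.

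The sgMyc counts were tested with edgeR 4.0.16 (R 4.3.3; filterByExpr, TMM, quasi-likelihood). The sgNAT10 values, log2(FPKM + 1) with a mean of at least 1 FPKM, were tested with limma 3.58.1 (trend). Translational efficiency and the difference between the edits were interaction terms in limma. Benjamini-Hochberg adjustment covered all genes tested (threshold 0.05). Ratios of FPKM between libraries gave back the smallest whole reads that fit them (tolerance 1e-09), in 99.9% of mRNA genes and 99.99% of Ribo-seq genes. A gene whose true reads share a common factor therefore comes out too low, and so can the depth sums. These reads served for depth and an edgeR alternative. Other alternatives were DESeq2 1.42.0, pseudocounts, filters, scalings, a replicate block and leaving out each library.

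The members, gene lists and tests were chosen with earlier results of these data known. Named genes outside the members were up to 3 per list with the largest called, non-overlapping changes, and some of these, and 1 searched motif, are not reported here. Exceptions chosen after their values were seen are levels of Irf7, Rsad2, Ifnb1, Cd14 and Csf1r, and Myc under the Nat10 guide, and Pcna, Ubb, Fau, Uba1 and Ube2l3 levels. In the sgMyc table Uba7, Ube2l6, Herc6 and Usp18 overlap predicted genes with 2 to 50 counts over 6 libraries, against 16540 to 41614 for the members. The fits were tested on simulated data with known changes in well-expressed genes, an even spread and no discrepant library. That test therefore does not cover a library like sgMyc replicate 3, the wide spread of Ribo-seq or members at low levels.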

Additional observations from a re-analysis of the deposited data

Results flagged for a closer look

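The change of Trim25 mRNA from own WT differed between the 2 edited groups by a test of the difference itself. Its sgMyc effect exceeded its sgNAT10 effect by 2.84 on the log2(FPKM + 1) scale (SE 0.642, limma adjusted p = 0.0161). The call was lost on leaving out sgNAT10 replicate 1 (adjusted p = 0.0649) or 2 (0.0572), or replicate 1 (0.0605) or 2 (0.0631) of their WT.

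Every Uba7 value lay above WT in sgMyc and below WT in sgNAT10. The share of all genes that separate in this way was not counted. The mean over its libraries was 24.7 times WT in sgMyc, from 35.9 times in replicates 1 and 2 and 2.09 times in replicate 3. Its sgMyc call (edgeR adjusted p = 0.0289) was lost with limma (adjusted p = 0.0992) and with a replicate block in edgeR (0.0949). It was also lost without sgMyc replicate 1 or 2 or any WT library. In sgNAT10 the mean was 0.140 times WT, where it rests on 1 read in each edited library. Limma with no filter did not call Uba7 in sgNAT10 (log2 fold change -0.08, adjusted p = 0.148), but the log2(FPKM + 1) scale understates genes this low. The 95% exact interval of its ratio, 0.0159 to 0.598, lay below 1 but covers counting error only. The authors' deposited table lists an adjusted p of 0.102 for Uba7. The difference between the edits was not tested, since Uba7 lies below the FPKM filter.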

How the results depend on the processing

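Under the alternatives, the 3 sgNAT10 mRNA calls kept their direction and side of the threshold in 34 of 34 member results, although a minimum mean of 5 FPKM left 1 member to test and call. Over all genes there, median scaling turned the balance to 29.0% higher and 35.0% lower, and quantile normalisation to 29.5% and 34.0%. In Ribo-seq none of 35 member results changed side. In the sgMyc set 29 of 78 lost the call, 2 gained it and 0 reversed. The members called there were 3 with limma and between 0 and 6 without 1 library, and the genes called were between 680 and 9368 without 1 library. In Ribo-seq, the genes called were 87 without a trend, 756 with edgeR on reads and between 0 and 9 without 1 library. For translational efficiency, genes called without 1 library were between 3 and 640 and members called between 0 and 1, and Trim25 ran from -0.63 without sgNAT10 Ribo-seq replicate 1 to 0.18, the reverse sign, without replicate 2. For the difference between the edits, genes called without 1 library were between 1136 and 6115 and members between 0 and 3; with median scaling 878 genes were higher and 1179 lower, against 696 and 1457. Where a group was left with 1 library, it was assumed to vary like the others. The causes were not tested.

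Equal replicate numbers did not pair libraries, as deviations of same-numbered libraries correlated at -0.018 to 0.0245. With a replicate block, sgMyc calls were 1082 genes (6.44% of those tested) and 1 member (Usp18). Translational efficiency calls were then 1 gene and difference calls 1256 genes. In the Ribo-seq block, 240 genes were called. Footprint depth, with 2 to 67 reads of Isg15, limits that comparison.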
